A study of Mus musculus with 8 samples.

Results

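The 7 genes described here are G6pc2, the 3 genes that neighbour it on mouse chromosome 2 (Nostrin, Spc25 and Abcb11), and the other 3 subunits of the protein complex to which Spc25 belongs (Spc24, Ndc80 and Nuf2). They were picked by symbol, all 7 have a row among the 23284 genes in the count files, and the selection asks whether the lower Spc25 level in Neurod1-deficient cells goes with its chromosomal position or with its complex. The low G6pc2 and Spc25 levels in the KO libraries were known when the genes were picked. The KO and Het values of all 7 are therefore given as a description. Significance calls printed for them below are not evidence of a difference.

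The 8 RNA-seq libraries held mouse pancreatic endocrine cells at embryonic day 17, sorted by flow cytometry for a Cre-dependent Tomato reporter switched on by Neurog3-Cre, a transgene active in endocrine precursors. Neurod1 encodes a transcription factor of islet and nerve cells, of the basic helix-loop-helix class. Its 2 alleles were floxed in 4 libraries (KO, Neurod1floxed/floxed, replicates 8, 9, 17 and 24). In the other 4 a floxed allele stood beside a wild-type one (Het, Neurod1floxed/wt, replicates 6, 7, 13 and 19). All 8 carried Neurog3Cre+ and RosaTomato+ on a background labelled C56BL/J, so the Het cells had also been exposed to Cre and could lose 1 of their alleles. The labels do not say that the libraries came from separate animals, so SDs and p-values measure the spread between these libraries.

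G6pc2 encodes an islet-specific glucose-6-phosphatase catalytic subunit of the endoplasmic reticulum, which turns glucose-6-phosphate back into glucose and so limits glycolysis in beta cells. Spc25, Spc24, Ndc80 and Nuf2 form the Ndc80 complex of the outer kinetochore, which holds spindle microtubules to chromosomes in mitosis. Ndc80 and Nuf2 contact the microtubule, Spc24 and Spc25 anchor the complex to the inner kinetochore, and the 4 proteins are present in equal numbers. Nostrin encodes an adaptor protein that traffics endothelial nitric oxide synthase, and Abcb11 encodes the bile salt export pump of hepatocytes.

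In the RefSeq gene order of the GRCm38.p6 assembly the 4 locus genes are adjacent, as Nostrin, Spc25, G6pc2 and Abcb11. Spc25 (ENSMUSG00000005233.16) and G6pc2 (ENSMUSG00000005232.11) lie head to head, Spc25 on the minus strand and G6pc2 on the plus strand, and in the GENCODE M21 annotation neither overlaps another gene. Spc24 is on chromosome 9, Ndc80 on chromosome 17 and Nuf2 on chromosome 1. The labels do not say that strand was kept, and without it reads from overlapping transcripts on opposite strands cannot be told apart. In that annotation this touches Abcb11, whose span overlaps 2 genes on the other strand. The annotation behind the deposited counts is not known, so whether its Spc25 and G6pc2 models reach into each other cannot be told.

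The sequences before the starts of G6pc2 and Spc25 are shown because these neighbours were both lower in KO. Each is the 250 bases before a RefSeq start, 5′ to 3′ on the gene's own strand (GRCm38.p6, while the deposited counts were made on mm9). In G6pc2 the capitals mark E-boxes (CANNTG), the motif that basic helix-loop-helix factors bind, and in Spc25 they mark CCAAT boxes (CCAAT, bound by the factor NF-Y). G6pc2 has 2 starts in RefSeq, a distal one and one further downstream. The distal one is preceded by chr2:69210823-69211072 on the plus strand, the downstream one by chr2:69219699-69219948 on the plus strand, and the Spc25 start by chr2:69206214-69206463 on the minus strand.
G6pc2 distal start: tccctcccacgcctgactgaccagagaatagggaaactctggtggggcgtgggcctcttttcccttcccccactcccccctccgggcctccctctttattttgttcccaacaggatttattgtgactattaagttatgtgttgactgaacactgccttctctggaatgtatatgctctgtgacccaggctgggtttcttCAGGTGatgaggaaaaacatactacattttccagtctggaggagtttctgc
G6pc2 downstream start: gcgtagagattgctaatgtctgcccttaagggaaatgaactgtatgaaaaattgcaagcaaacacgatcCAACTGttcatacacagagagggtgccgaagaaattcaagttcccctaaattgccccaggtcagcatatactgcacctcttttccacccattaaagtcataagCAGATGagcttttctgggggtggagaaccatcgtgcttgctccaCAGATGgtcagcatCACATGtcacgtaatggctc
Spc25 start: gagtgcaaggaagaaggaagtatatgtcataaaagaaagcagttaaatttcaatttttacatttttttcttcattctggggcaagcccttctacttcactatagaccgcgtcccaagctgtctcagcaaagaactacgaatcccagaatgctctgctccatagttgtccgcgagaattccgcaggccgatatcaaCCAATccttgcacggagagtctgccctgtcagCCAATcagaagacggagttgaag

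The downstream G6pc2 start had 4 E-boxes in its promoter window, 250 bases before to 50 after the start, searched on both strands. Of these, 2 read CAGATG, the E-box form that NeuroD factors prefer, at −78 to −73 and −34 to −29. Of 32851 promoter windows of that length in the RefSeq table, 6.49% held at least 4 E-boxes, 17.2% held a CAGATG and 1.83% held at least 2. The marks of 4 and 2 were set from the counts in the downstream window. The window of the distal start held 1 E-box, CAGGTG, and no CAGATG. Which start these cells use was not tested. The Spc25 window held no E-box, which 72.3% of windows had. It held 2 CCAAT boxes, as 11.7% of windows did, and a TTTGAA, the core of the CHR element of mitotic genes, found in 17.9% of windows. That core was also in the windows of the G6pc2 distal start and of Nostrin, and in the Ndc80 window on the other strand, so it was not limited to the mitotic genes. The Nuf2 window held none of these motifs. For Spc24 no promoter window was available, so it was not searched. The 30 bases around each of these CHR matches, which lie just after the annotated starts (Spc25 at chr2:69206172-69206201 on the minus strand, Ndc80 at chr17:71526811-71526840 on the minus strand), are shown with the match in capitals. These are letter matches in a fixed window, and binding was not measured.
Spc25 CHR match: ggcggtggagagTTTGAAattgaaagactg
Ndc80 CHR match: gaaactttaaaaTTCAAAccgccttgggtt

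Library totals ran from 10.35 M to 16.1 M gene counts. Neurod1 stood at 14.8 ± 9.17 CPM in KO and 156 ± 36.5 CPM in Het (CPM are gene counts scaled by TMM-adjusted library size, and 1 CPM was 9.86 to 16.2 counts; SD, n = 4 each). KO replicate 8 stood apart from the other 7 libraries: the 8 mesenchyme markers listed for comparison were all highest there and summed to 8857 CPM, against 342 to 497 CPM in the other KO libraries and 250.2 to 1107 CPM in Het. Values with and without it are given below. The 9 endocrine markers, among them Chga, Pax6 and the hormone genes, were detected in every library and summed to 18184 to 34412 CPM in KO and 57558 to 80805 CPM in Het. Most of these sums came from the hormone genes Gcg, Ins1 and Ins2, with Het means of 30589, 13307 and 13624 CPM. The other 6 were not called by edgeR. Their log2 fold changes, KO over Het, were all negative, from −0.61 (Chgb) to −0.29 (Pax6). Fewer cells of a type and less RNA per cell cannot be told apart in such pools.

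All KO libraries had less G6pc2 than any Het library. It had 37.7, 21.1, 33.7 and 37.7 CPM in KO replicates 8, 9, 17 and 24, against 573, 505, 396 and 460.3 CPM in Het replicates 6, 7, 13 and 19. The groups lay far apart, and KO replicate 8, with its mesenchyme transcripts, was level with KO replicate 24. The means were 32.5 ± 7.88 CPM in KO and 484 ± 74.5 CPM in Het (SD, n = 4 each), a log2 fold change of −3.89 (SE 0.22), and −3.98 without KO replicate 8. The highest library held 1.79 times the lowest within KO and 1.45 times within Het, the narrowest KO range of the 6 genes with reads in every library. At 264 to 8173 reads per library, counting error was small.

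Spc25 was also lower in every KO library, by less and with more spread. It had 34.8, 19.4, 22.8 and 10.96 CPM in KO replicates 8, 9, 17 and 24, against 166, 159, 104 and 55.97 CPM in Het replicates 6, 7, 13 and 19. Het replicate 19 was the lowest of its group and still above every KO library, and KO replicate 8 was the highest of its group. The means were 21.97 ± 9.86 CPM in KO and 121 ± 51.7 CPM in Het (SD, n = 4 each), so the KO mean was 0.181 of the Het mean. The log2 fold change was −2.46 (SE 0.40), and −2.78 without KO replicate 8. Within each genotype the highest library held about 3 times the lowest, 3.17 times in KO and 2.97 times in Het.

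**Figure D1:**
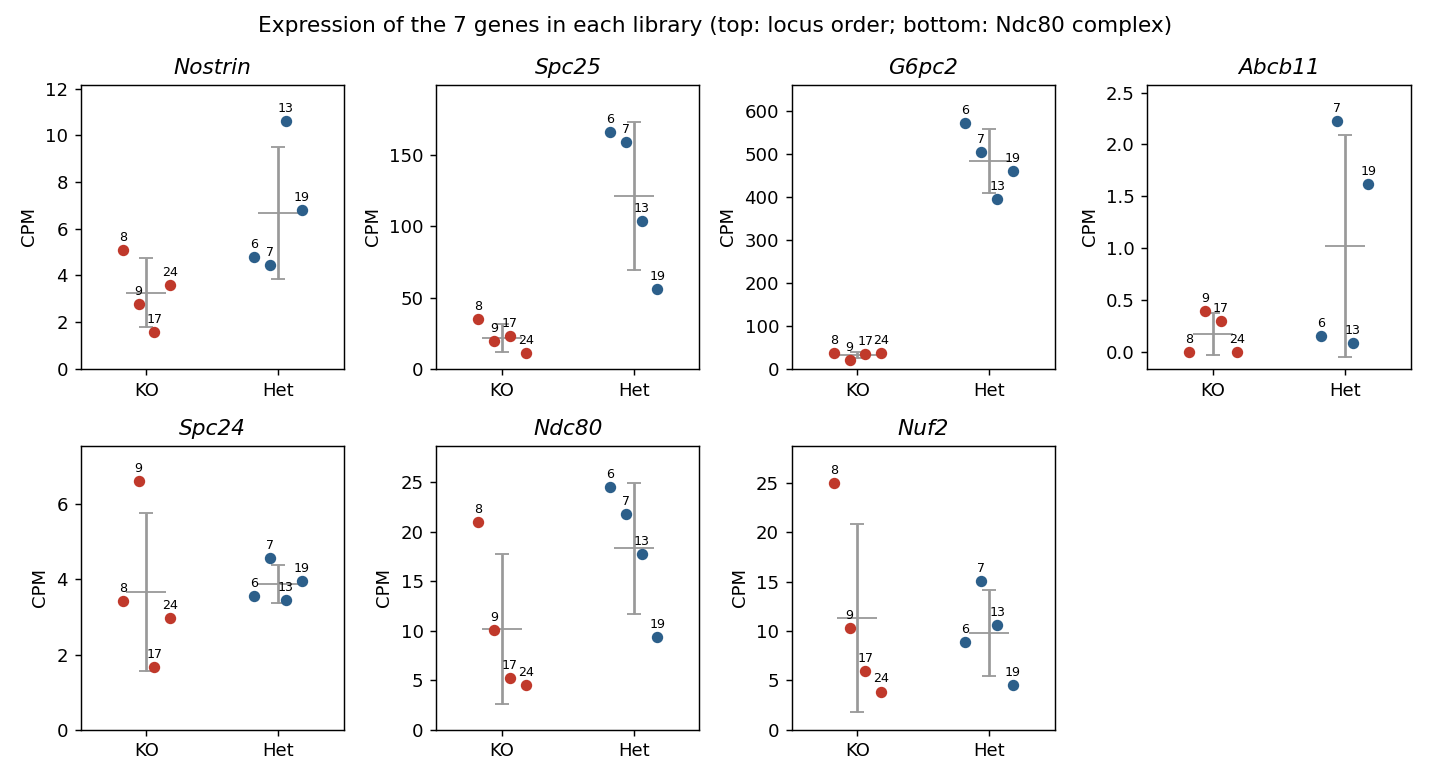
CPM of each gene by library, KO left of Het, with replicate numbers beside the points and the mean and SD in grey; each panel has its own linear axis. G6pc2 and Spc25 do not overlap between the groups, and the other 5 genes do.

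Of the 6 members that passed the filter on low counts, edgeR called 2, G6pc2 and Spc25, both lower and none higher. Among all 14116 genes tested 0.68% were called lower, 0.34% higher and 1.02% in either direction, at an adjusted p under 0.05. The same 2 had all KO libraries below all Het libraries, which held for 4.48% of the genes tested, and 3.55% had all KO above all Het. Both had been picked for this, so nothing is read from the counts. The calls under other settings describe only how the fit depends on the settings. G6pc2 kept its call under all 14 alternative settings. Spc25 lost its call without KO replicate 9, 17 or 24 or Het replicate 6, 7 or 13, with a log2 fold change between −2.78 and −2.26 over the libraries left out in turn. In the authors' deposited table the mean normalized counts of Spc25 were 272 in KO and 1504 in Het, a log2 fold change of −2.47.

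The outer neighbours were expressed at low levels. Nostrin had 5.10, 2.79, 1.58 and 3.59 CPM in KO replicates 8, 9, 17 and 24, against 4.79, 4.45, 10.6 and 6.79 CPM in Het replicates 6, 7, 13 and 19. KO replicate 8 lay above both Het replicates 6 and 7, so the groups overlapped. The means were 3.27 ± 1.47 CPM in KO and 6.66 ± 2.82 CPM in Het (SD, n = 4 each), a log2 fold change of −1.02 (SE 0.49) that ran from −1.51 to −0.71 over the alternatives and was not called in any. The sum of the 12 endothelial markers, to which cell type Nostrin belongs, was 21.5 to 45.97 CPM in KO and 22.5 to 27.7 CPM in Het. Egfl7 alone stood at 12.7 ± 1.15 CPM in KO and 11.7 ± 1.78 CPM in Het. The median log2 fold change of the 8 tested markers was 0.56, and 1, Esam, had a negative value. Of the 8 tested, 1, the claudin gene Cldn5 (log2 fold change 3.88), was called higher and none lower. Cldn5 had 2.62 to 3.75 CPM in KO and 0.0772 to 0.371 CPM in Het. Its Het values are a few reads per library, so the size of its fold change is uncertain. Nos3, the gene of endothelial nitric oxide synthase, was at most 0.754 CPM, in KO replicate 17. Kdr, Flt1, Tie1 and Emcn were at 0 in Het replicate 6 and Nos3 in Het replicate 13. The part of these cells in the Nostrin values was not tested.

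Abcb11 did not pass the filter on low counts. It had 0, 5, 4 and 0 reads in KO replicates 8, 9, 17 and 24, against 2, 36, 1 and 16 reads in Het replicates 6, 7, 13 and 19. A count of 0 allows up to 3 reads, or 0.219 CPM in KO replicate 8 and 0.27 CPM in KO replicate 24, by counting error alone. Most of its reads were in Het replicates 7 and 19, and the other Het libraries lay among the KO libraries. At this depth no difference in Abcb11 could be measured. The 8 hepatocyte markers summed to 6.74 to 19.2 CPM in KO and 9.96 to 19.9 CPM in Het; edgeR called none of the 6 tested (Fgb, lower, was the 1 with an unadjusted p under 0.05), and Apoa1 was at 0 in all KO libraries. The part of such transcripts in the Abcb11 counts was not tested.

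No gene flanking the 4 was called in either direction. Of 20 flanking genes with a row, 10 on each side, 17 had a read and 13 were tested, and edgeR, DESeq2 and limma-voom called none; 1 had an unadjusted p under 0.05 by edgeR, the sodium channel gene Scn9a (log2 fold change −0.56, SE 0.23, adjusted p = 0.366). Their median log2 fold change was −0.01, that of all genes tested was 0.03, and 7 of the 13 had a negative value. Cers6 (listed as Lass6), a ceramide synthase gene and the gene next to Nostrin, had 174 ± 15.4 CPM in KO and 199.8 ± 51.2 CPM in Het (SD, n = 4 each), a log2 fold change of −0.20 (SE 0.18). Dhrs9, next to Abcb11 on the other side, had too few reads to test. Of 16 named neighbours, reaching further on the Abcb11 side, 12 were tested and none was called by edgeR, DESeq2 or limma-voom, with none at an unadjusted p under 0.05 by edgeR. Of those 12, 7 had a negative value, or 5 with scaling to total counts, 9 without KO replicate 8 and 10 by limma-voom. The smallest p in that list was that of B3galt1, a galactosyltransferase gene (log2 fold change 1.72, SE 0.85, adjusted p = 0.450 by edgeR), which was highest in KO replicate 8 and had a log2 fold change of 1.05 without it.

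**Figure D2:**
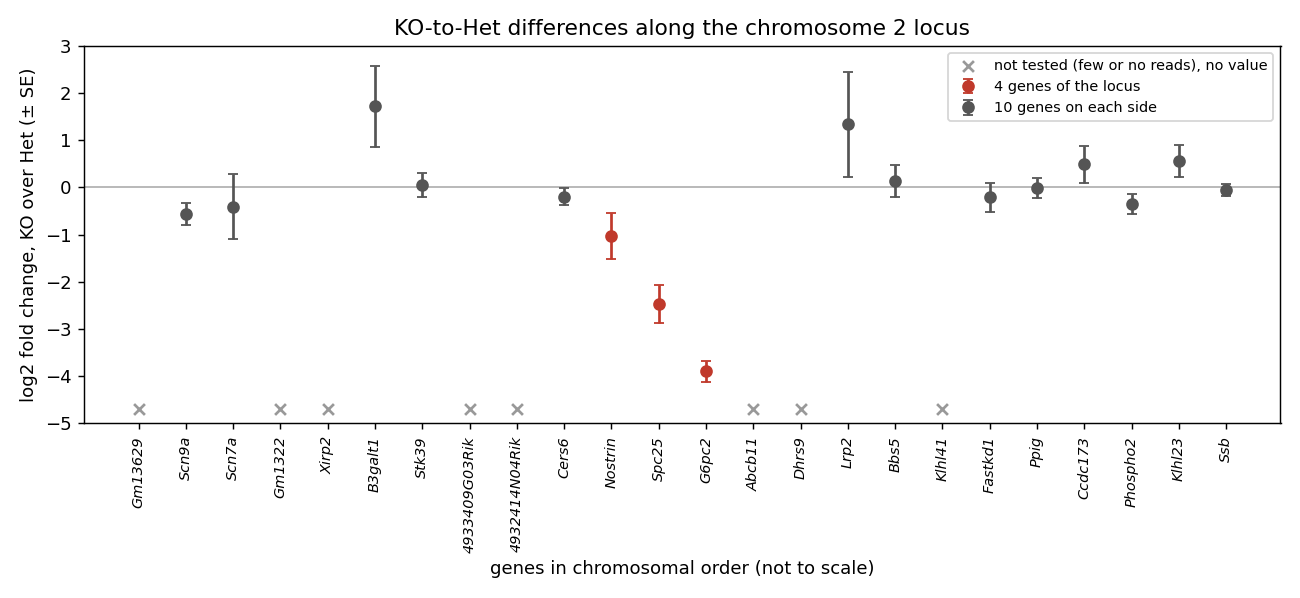
Log2 fold change, KO over Het, with SE, for the 4 locus genes in red and 10 genes on each side in grey, in chromosomal order and not to scale; crosses mark genes with too few reads to test. Spc25 at −2.46 and G6pc2 at −3.89 were picked for their low KO levels. They stand below the tested genes around them, which run from −0.56 to 1.72, with Nostrin at −1.02 between.

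The other subunits of the complex overlapped between KO and Het, and none was called. Ndc80 had 20.98, 10.1, 5.20 and 4.49 CPM in KO replicates 8, 9, 17 and 24, against 24.6, 21.8, 17.8 and 9.33 CPM in Het replicates 6, 7, 13 and 19. KO replicate 8 lay among the highest Het libraries and KO replicates 17 and 24 below all of them. The means were 10.2 ± 7.61 CPM in KO and 18.4 ± 6.63 CPM in Het (SD, n = 4 each), a log2 fold change of −0.85 (SE 0.50). Over the alternatives it ran from −1.49, without KO replicate 8, to −0.62, without KO replicate 24.

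Nuf2, the partner of Ndc80 at the microtubule, had 24.99, 10.3, 5.96 and 3.86 CPM in KO replicates 8, 9, 17 and 24, against 8.88, 15.1, 10.6 and 4.56 CPM in Het replicates 6, 7, 13 and 19. KO replicate 8 was the highest of all 8 libraries, KO replicate 24 was the lowest, and the groups overlapped throughout. The means were 11.3 ± 9.53 CPM in KO and 9.78 ± 4.35 CPM in Het (SD, n = 4 each). The log2 fold change was 0.20 (SE 0.57) and turned to −0.56 without KO replicate 8.

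Spc24, which pairs directly with Spc25, had 3.42, 6.62, 1.66 and 2.96 CPM in KO replicates 8, 9, 17 and 24, against 3.55, 4.57, 3.44 and 3.95 CPM in Het replicates 6, 7, 13 and 19. The Het values lay inside the KO range. The means were 3.67 ± 2.11 CPM in KO and 3.88 ± 0.511 CPM in Het (SD, n = 4 each), a log2 fold change of −0.08 (SE 0.50) that ran from −0.53 to 0.14 over the alternatives. Its 22 to 83 reads per library leave the most counting error of the 4 subunits. None of Spc24, Ndc80 and Nuf2 was called under any of the 14 alternatives, and their standard errors leave room for sizeable differences either way.

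The lower Spc25 level also stood against that of its partners in each library. Spc25 stood above the mean of its 3 partners by 1.52, 1.14, 2.61 and 1.56 log2 units in KO replicates 8, 9, 17 and 24, against 4.18, 3.80, 3.59 and 3.34 log2 units in Het replicates 6, 7, 13 and 19. Every KO library was below every Het library, KO replicate 8 included. The means were 1.71 ± 0.63 in KO and 3.73 ± 0.35 in Het (SD, n = 4 each), a difference of −2.02 log2 units, and −1.95 without KO replicate 8. Spc25 had been picked for its low KO level, and the partner mean was 2.63 ± 0.87 log2 CPM in KO and 3.07 ± 0.44 log2 CPM in Het, so the ratio restates the Spc25 difference and is no separate result on the complex. In reads, Spc25 had 1.66 to 4.38 times those of Ndc80 in KO and 5.86 to 7.31 times in Het.

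Nuf2 relative to Ndc80 also separated the groups, in the other direction, and Spc24 relative to Ndc80 did not. The log2 ratio of Spc24 to Ndc80 ran from −2.62 to −0.60 in KO and from −2.79 to −1.24 in Het. How many pairs of genes separate the groups in this way was not counted. The log2 ratio of Nuf2 to Ndc80 averaged 0.07 ± 0.21 in KO and −0.94 ± 0.41 in Het (SD, n = 4 each), with KO values from −0.22 to 0.25 and Het values from −1.47 to −0.53. Spc25 relative to G6pc2 was higher in KO, since G6pc2 was reduced more: the log2 ratio averaged −0.65 ± 0.79 in KO and −2.11 ± 0.63 in Het (SD, n = 4 each). That ratio overlapped between the groups, through KO replicate 24 at −1.78.

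**Figure D3:**
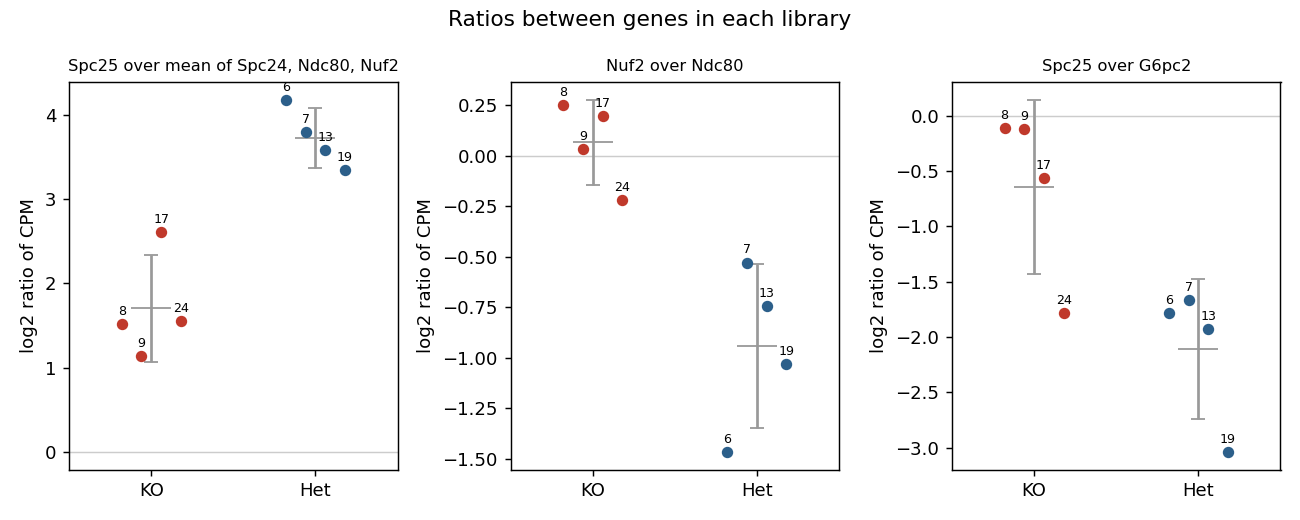
Log2 ratio of CPM in each library, KO left of Het, with replicate numbers, mean and SD, for Spc25 over the mean log2 level of its 3 partners, Nuf2 over Ndc80, and Spc25 over G6pc2. The first ratio lies between 1.14 and 2.61 in KO and between 3.34 and 4.18 in Het, and of the ratios shown only the third overlaps.

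Per kilobase of the longest protein-coding transcript in GENCODE M21, Spc25 was the most abundant subunit of its complex in both genotypes. It stood at 14.4 ± 6.46 CPM per kb in KO and 79.4 ± 33.8 CPM per kb in Het (SD, n = 4 each). Ndc80 stood at 4.63 ± 3.46 CPM per kb in KO and 8.34 ± 3.01 CPM per kb in Het, and Nuf2 at 4.69 ± 3.96 CPM per kb in KO and 4.07 ± 1.81 CPM per kb in Het. Spc24 was lowest, at 2.16 ± 1.24 CPM per kb in KO and 2.29 ± 0.301 CPM per kb in Het. G6pc2 stood at 17.2 ± 4.17 CPM per kb in KO and 256 ± 39.4 CPM per kb in Het, so that G6pc2 and Spc25 lay within their spread of each other in KO and apart in Het. The authors' transcript models were not used here, so these lengths are an approximation.

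Within a genotype, where the KO-to-Het difference plays no part, the likeness of Spc25 to its partners and to G6pc2 depended on the libraries included. Deviations of log2 CPM from the mean of the library's own genotype were compared over the 8 libraries, which share their normalization, as a description. Pearson's r of Spc25 was 0.85 with Ndc80 (Spearman's rho 0.90) and 0.83 with Nuf2 (rho 0.69). Leaving out KO replicates 8 and 24, the pair farthest from the median of either partner, r was 0.74 with Ndc80 and 0.69 with Nuf2. Leaving out KO replicate 24 and Het replicate 19, the farthest for Spc25, r was 0.68 with Ndc80 and 0.58 with Nuf2. Without KO replicate 8 alone, r was 0.81 and 0.78. Ndc80 and Nuf2 had r = 0.95 with each other. With Spc24, at few reads, Spc25 had r = −0.00.

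With G6pc2, Spc25 had r = 0.22 (rho 0.43) over the same deviations. It was 0.42 without KO replicate 9 and Het replicate 13, the farthest for G6pc2, and 0.04 without KO replicate 8. Without KO replicate 24 and Het replicate 19 it was 0.86, above the 0.68 with Ndc80 and the 0.58 with Nuf2 over the same 6 libraries, so the order of the partners and G6pc2 turned round. In KO replicate 24 and Het replicate 19 Spc25, Ndc80 and Nuf2 were all lowest of their genotype while G6pc2 was not. With Nostrin, Spc25 had r = −0.17, and −0.64 without KO replicate 8.

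**Figure D4:**
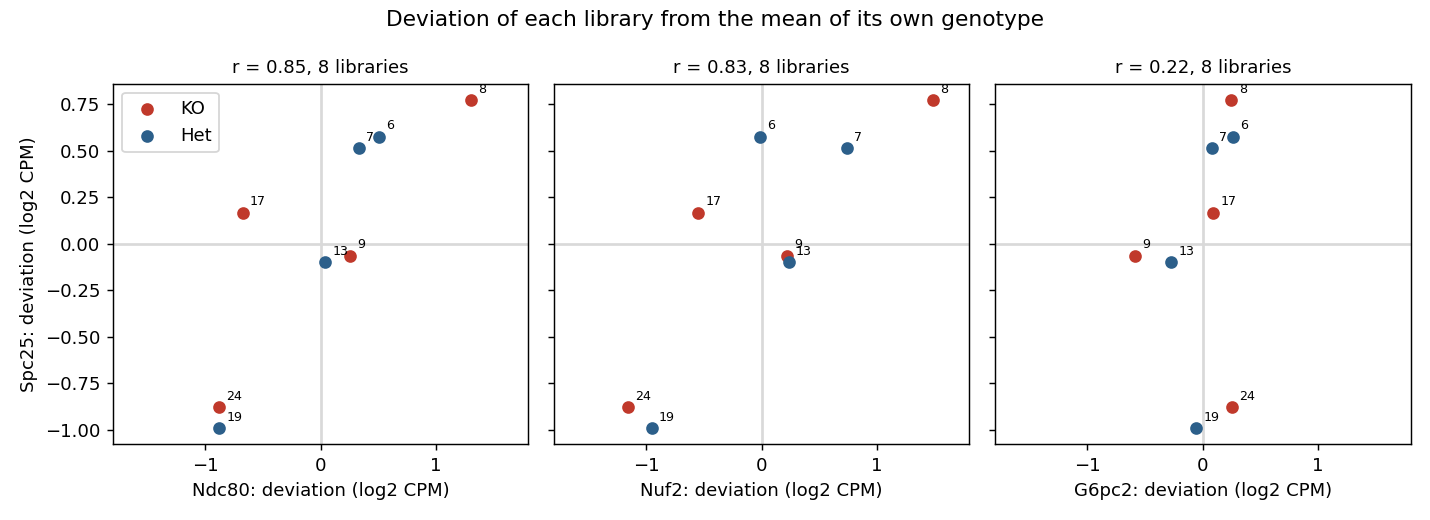
Deviation of log2 CPM from the mean of the own genotype, Spc25 on the vertical axis and Ndc80, Nuf2 or G6pc2 on the horizontal axis, 1 point per library with its replicate number. KO replicate 24 and Het replicate 19 lie lowest for Spc25, Ndc80 and Nuf2, and G6pc2 spans a narrower range.

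Among 9717 genes averaging 8 CPM or more, Ndc80 ranked 253 and Nuf2 328 in likeness to Spc25 by this measure, and G6pc2 ranked 3929. These ranks are over all 8 libraries and were not recomputed with libraries left out. Without KO replicate 24 and Het replicate 19, r with Spc25 was higher for G6pc2 (0.86) than for Ndc80 (0.68) or Nuf2 (0.58). Without KO replicate 8 it was lower for G6pc2 (0.04) than for Ndc80 (0.81) or Nuf2 (0.78). The closest 5 were Gpt2 (r = 0.99), an alanine aminotransferase gene, Rfwd3 (0.97), a ubiquitin ligase gene of DNA repair, Cept1 (0.97), a phospholipid synthesis gene, Cyp39a1 (0.96), an oxysterol hydroxylase gene, and Kcnj8 (0.96), a potassium channel gene. Kcnj8 was uneven between libraries, at 16.7 ± 28.6 CPM in KO and 5.88 ± 5.78 CPM in Het (SD). The closest 5 to G6pc2 were Pih1d1 (0.99), Galntl4 (0.98), Nfyb (0.97), Zfp248 (0.96) and Mrps31 (0.95). None of the 10 was called between KO and Het. The median r with Spc25 was 0.71 over the 20 mitosis genes, 0.46 over the 39 other kinetochore genes, 0.09 over the 12 tested neighbours and 0.00 over all genes ranked.

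The wider machinery of division was mostly lower in KO without calls. Of 39 other kinetochore and spindle checkpoint genes, all tested, edgeR called none, although 33 had a negative log2 fold change (46.6% of all genes tested did). Mis12, Cenpf and Cenpm, the 3 genes with an unadjusted p under 0.05, were all lower. The share of all genes tested with such a p was not counted. The count of calls in this list was 1 (Mis12) by DESeq2 and 5, all lower, by limma-voom with quality weights. Over all 14116 genes tested DESeq2 called 293 lower and limma-voom 304. The median of the kinetochore list was −0.41, against 0.03 for all genes tested. The smallest p was that of Mis12, a subunit of the complex on which the Ndc80 complex is anchored. It had 46.0, 42.8, 38.0 and 41.5 CPM in KO replicates 8, 9, 17 and 24, against 59.4, 63.4, 69.8 and 71.1 CPM in Het replicates 6, 7, 13 and 19 (log2 fold change −0.65, SE 0.14, adjusted p = 0.0701 by edgeR). The groups did not overlap, and without KO replicate 8 Mis12 was called (−0.70, adjusted p = 0.0475).

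Of 20 mitosis genes outside the kinetochore, edgeR and DESeq2 called none, 17 had a negative log2 fold change, and the median was −0.56. An unadjusted p under 0.05 was reached by 6, each lower, and 6 were called lower by limma-voom with quality weights. Limma-voom called 304 of all 14116 genes tested lower, and the share of all genes with an unadjusted p under 0.05 was not counted. The smallest p in the mitosis list was that of Cdk1, the kinase that starts mitosis (log2 fold change −0.81, SE 0.25, adjusted p = 0.204 by edgeR). None of these 59 genes had a log2 fold change as low as that of Spc25, and the lowest was −1.28 for Cenpm. Spc25 had been picked for its low KO level and these genes had not, so nothing is read from that order.

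KO replicate 8 had the highest value of the 4 KO libraries for 31 of the 39 kinetochore genes and for 14 of the 20 mitosis genes, as it had for Spc25, Ndc80 and Nuf2. Without it the medians were −0.75 for the kinetochore list and −0.95 for the mitosis list, and edgeR called 1 and 2 genes lower, Mis12, and Ccnb2 and Prc1. Without KO replicate 24 the medians were −0.26 and −0.40, and without KO replicate 17 −0.29 and −0.43, with none called. The mean log2 CPM of the kinetochore list was 3.94, 3.38, 2.99 and 2.84 in KO replicates 8, 9, 17 and 24. In Het it ran from 3.54 to 3.86. The part of the mesenchyme transcripts of KO replicate 8, and of leukocyte markers that summed to 346 CPM in it and 180 CPM in KO replicate 9, in these values was not tested.

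**Figure D5:**
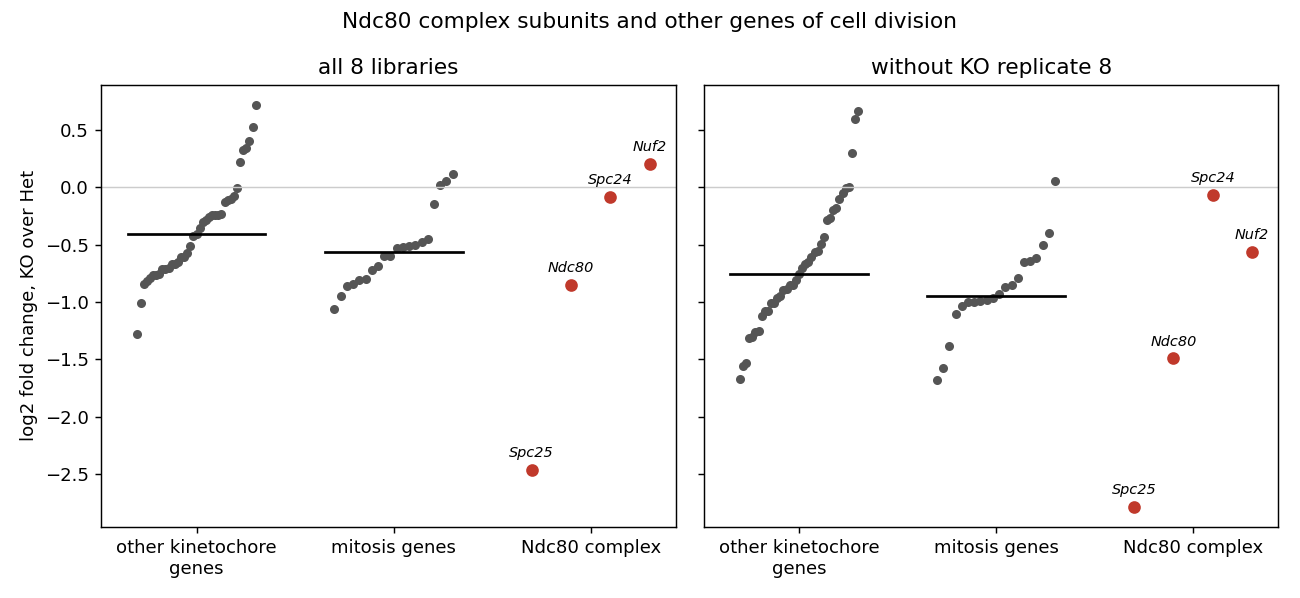
Log2 fold change, KO over Het, of 39 other kinetochore genes and 20 mitosis genes in grey, with their medians as lines, and of the 4 Ndc80 complex subunits in red, over all 8 libraries and without KO replicate 8. Spc25, picked for its low KO level, lies below every gene of both lists in each panel, at −2.46 and −2.78.

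No other gene of glucose-6-phosphate handling was called. Of 17 listed 16 were tested, by edgeR, DESeq2 and limma-voom, with a median log2 fold change of −0.07. By edgeR 1 had an unadjusted p under 0.05, the hexokinase gene Hk2 (1.40, SE 0.61, adjusted p = 0.391), which was highest in KO replicate 8. The ubiquitous glucose-6-phosphatase gene G6pc3 had a log2 fold change of 0.10 (SE 0.20) and the glucose-6-phosphate transporter gene Slc37a4 −0.11 (SE 0.18), with edgeR adjusted p of 0.882 and 0.852. The liver enzyme gene G6pc had reads in KO replicate 9 and Het replicate 7 only and was not tested. Of the 9 endocrine markers edgeR called 3, the hormone genes Ins1, Ins2 and Gcg, all lower, with Ins1 and Ins2 at log2 fold changes of −3.64 and −1.63 (edgeR adjusted p = 0.00795 and 0.0195).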

How the data were processed

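Reads were sequenced from amplified cDNA (NuGEN Ovation V2, single-end), per the labels' protocols. The submitters' processing notes name bcl2fastq 1.8.4, TopHat2 2.1.0, Cufflinks 2.0.2, DESeq and the mm9 build; no source used here names the counting tool or annotation. The deposited files hold raw read counts by gene symbol, and amplified copies count as reads. The authors' deposited table gives mean normalized signal per genotype, the ratio (fold change) and its log2, and p-values, per the file headers.

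Genes were filtered with filterByExpr (minimum count 10), scaled by TMM and tested with edgeR 4.0.16 (quasi-likelihood F test, two-sided, KO over Het, all 8 libraries, no covariate), with Benjamini-Hochberg adjustment over 14116 genes and a threshold of 0.05. SE is the log2 fold change over the root of F. Log2 CPM used a prior count of 2. Alternatives used DESeq2 1.42.0 and limma 3.58.1. The method was tested on simulated counts. No 2 libraries were alike beyond sampling noise (smallest chi-square per degree of freedom 18.2). Members, lists and marker sets were chosen with earlier results of these data known. From each list the called genes with the smallest p, or else the 1 with the smallest p, were named, with the 5 named genes (no Gm, Rik or LOC models) most like Spc25 and the 5 most like G6pc2; other genes were named after their values were seen. Promoter sequences are RefSeq's.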

Additional observations from a re-analysis of the deposited data

How the results depend on the processing

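With 1 library left out in turn, edgeR called 26 to 188 genes lower and 3 to 97 higher, against 96 and 48 with all 8; the upper ends are those without KO replicate 8, and with any other library left out at most 51 and 17 were called. In the same fits 0 to 1 kinetochore genes and 0 to 2 mitosis genes were called lower, against none with all 8. DESeq2 called 293 lower and 227 higher, with 1 kinetochore gene lower. Limma-voom with quality weights called 304 lower and 196 higher, with 5 kinetochore and 6 mitosis genes lower. The cause was not tested. The log2 fold changes of the 6 tested members stayed within the spread between libraries of the values given, over all 14 alternatives (median-ratio and total-count scaling, both tools, 2 filters and 8 libraries left out). Those of G6pc2, Spc25, Nostrin and Ndc80 kept their sign, while Nuf2 ran from −0.56 to 0.49 and Spc24 from −0.53 to 0.14. No paired analysis was possible because KO and Het share no replicate number. Depth limits Abcb11, with at most 36 reads in a library, and Spc24, with at most 83.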

Other observations

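Marker lists of other cell types were looked at beside the members. The 5 acinar markers summed to 1488 to 4843 CPM in KO and 1412 to 3968 CPM in Het, and the 4 erythroid markers to 7.10 to 10.5 CPM in KO and 6.41 to 15.3 CPM in Het. The 4 leukocyte markers summed to 11.3 to 346 CPM in KO and 12.7 to 49.8 CPM in Het, with the smallest p for Csf1r (log2 fold change 2.76, adjusted p = 0.168 by edgeR). EdgeR called none of the tested members of these lists or of the 8 mesenchyme markers, with 1 leukocyte and 2 mesenchyme markers at an unadjusted p under 0.05.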
